A study of Homo sapiens with 13 samples.

Results

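The ABC drug transporters described here are 10 genes of the ATP-binding cassette family, *ABCA1*, *ABCB1*, *ABCB6*, *ABCC1*, *ABCC2*, *ABCC3*, *ABCC4*, *ABCC5*, *ABCG1* and *ABCG2*. They were taken by gene symbol from the expression tables of 2 small cell lung cancer (SCLC) cell lines, and all 10 were found among the 56831 genes listed in each table. ABC transporters are membrane proteins that use the energy of ATP to move drugs, drug conjugates, lipids and metabolites across membranes. Several of them pump chemotherapy out of cancer cells, and a high level of these pumps is a known feature of multidrug resistance. SCLC is treated with etoposide and topotecan, which are substrates of members of this group.

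H82 and H146 are established neuroendocrine (NE) SCLC lines, both labelled as wild type, and H82 is of the NEUROD1 subtype. RNA was sequenced in 13 libraries, 3 untreated and 3 treated for H82 and 3 untreated and 4 treated for H146. Treated cells received FHD-286, an inhibitor of the ATPases SMARCA2 and SMARCA4 of the BAF chromatin remodelling complexes, at 100 nM for 14 days. Fresh drug was given every 48 h, and no vehicle is named for the untreated cells, which were grown in the same medium (RPMI1640 with 10% fetal bovine serum). The labels do not say whether the libraries of a group came from separate cultures, so *p* values measure the spread between these libraries, which may be technical.

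Levels are in transcripts per 1000000 (TPM), a unit that corrects for gene length and sums to 1000000 in every library. The number of reads per library is unknown, and the spread between libraries sets the precision. Between 21227 and 21772 genes reached 1 TPM in untreated H82, against 15554 to 16633 in treated H82, and the ranges were 17476 to 17965 and 18778 to 19309 in H146. Of 8 NE markers, 8 reached 1 TPM in every H82 library and 7 in every H146 library. The marker below 1 TPM in H146 was *NEUROD1*. All 5 hepatocyte markers reached 1 TPM in every treated H82 library, with a sum of 846, 467 and 893 TPM in replicates 1 to 3, against 0.477 to 1.38 TPM without treatment. In addition, 41 genes that were high in H146 and at most 0.05 TPM in untreated H82 summed to 27.9, 130 and 10.1 TPM in the treated H82 libraries, so that treated replicate 2 stood apart. The part of this RNA in the H82 results below was not tested, and the H82 values of the members, their sum and the gene lists are also given without replicate 2. Leaving it out does not remove such RNA, since replicates 1 and 3 also held RNA of the H146 genes and had the higher hepatocyte sums. The mitochondrial genome's genes held 22.1% to 24.1% of the TPM of untreated H82 libraries and 12.3% to 14.9% of treated ones, and 7.56% to 8.86% and 3.82% to 11.4% in H146. The part of that share in the results was not tested. The 5 fibroblast markers summed to 1.70 to 2.50 TPM in untreated and 7.92 to 33.3 TPM in treated H82. In H146 they summed to 6.52 to 8.64 TPM and 12.6 to 19.6 TPM. The hepatocyte markers there summed to 33.2 to 58.5 TPM without and 30.7 to 159 TPM with treatment. Leukocyte markers went from 6.82 to 9.96 TPM to 9.72 to 20.2 TPM in H146, and endothelial markers from 2.05 to 2.62 TPM to 0.292 to 0.675 TPM. The part of such RNA in the H146 results was not tested.

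In H82, *ABCC1*, *ABCC4* and *ABCC5* lay far above the other members in RNA level, whereas the members formed a more graded series in H146. In untreated H82, *ABCC1*, *ABCC4* and *ABCC5*, which export organic anions, drug conjugates and cyclic nucleotides, made up 97.0% ± 0.547 of the summed RNA of the 10 genes (SD, n = 3). *ABCC1* was at 61.2 ± 5.33 TPM, *ABCC4* at 54.8 ± 3.06 TPM and *ABCC5* at 43.8 ± 1.52 TPM (SD, n = 3). The libraries of *ABCC1* and *ABCC4* overlapped, whereas those of *ABCC5* lay below both. *ABCB6* (1.97 ± 0.116 TPM), *ABCC2* (1.45 ± 0.195 TPM) and *ABCG1* (1.14 ± 0.373 TPM) followed at a far lower level. *ABCA1*, *ABCC3*, *ABCG2* and *ABCB1* were at most 0.206 TPM in any untreated H82 library, and neighbours in that order overlapped.

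In untreated H146 the same 3 ABCC genes took 76.2% ± 1.21 of the summed RNA (SD, n = 3). *ABCG1*, *ABCB6*, *ABCB1* and *ABCC3* were higher in every untreated H146 library than in any untreated H82 library. So was *ABCC5*, narrowly, with its lowest H146 library at 46.4 TPM and its highest H82 library at 45.1 TPM, and so was *ABCA1*, below 1 TPM. *ABCC1* and *ABCC4* were lower in every untreated H146 library. They were at most 25.2 and 11.3 TPM there, against at least 55.97 and 51.8 TPM in untreated H82. The share of all genes that lie apart between the untreated lines was not counted, so these differences only describe the levels. *ABCC5* came first at 57.9 ± 10.0 TPM, followed by *ABCC1* at 20.6 ± 4.37 TPM, *ABCG1* at 10.5 ± 0.627 TPM and *ABCC4* at 9.90 ± 1.57 TPM (SD, n = 3). The libraries of *ABCG1* and *ABCC4* overlapped, as did those of *ABCB6* (6.33 ± 1.41 TPM) and *ABCB1* (5.52 ± 0.972 TPM). *ABCC3* was at 3.52 ± 0.471 TPM and *ABCC2* at 1.23 ± 0.218 TPM (SD, n = 3). *ABCA1* and *ABCG2* were at most 0.304 TPM in each untreated library. The plot of the members by library shows the gap between *ABCC1*, *ABCC4* and *ABCC5* and the other members in H82, and the gradation in H146.

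**Figure D1:**
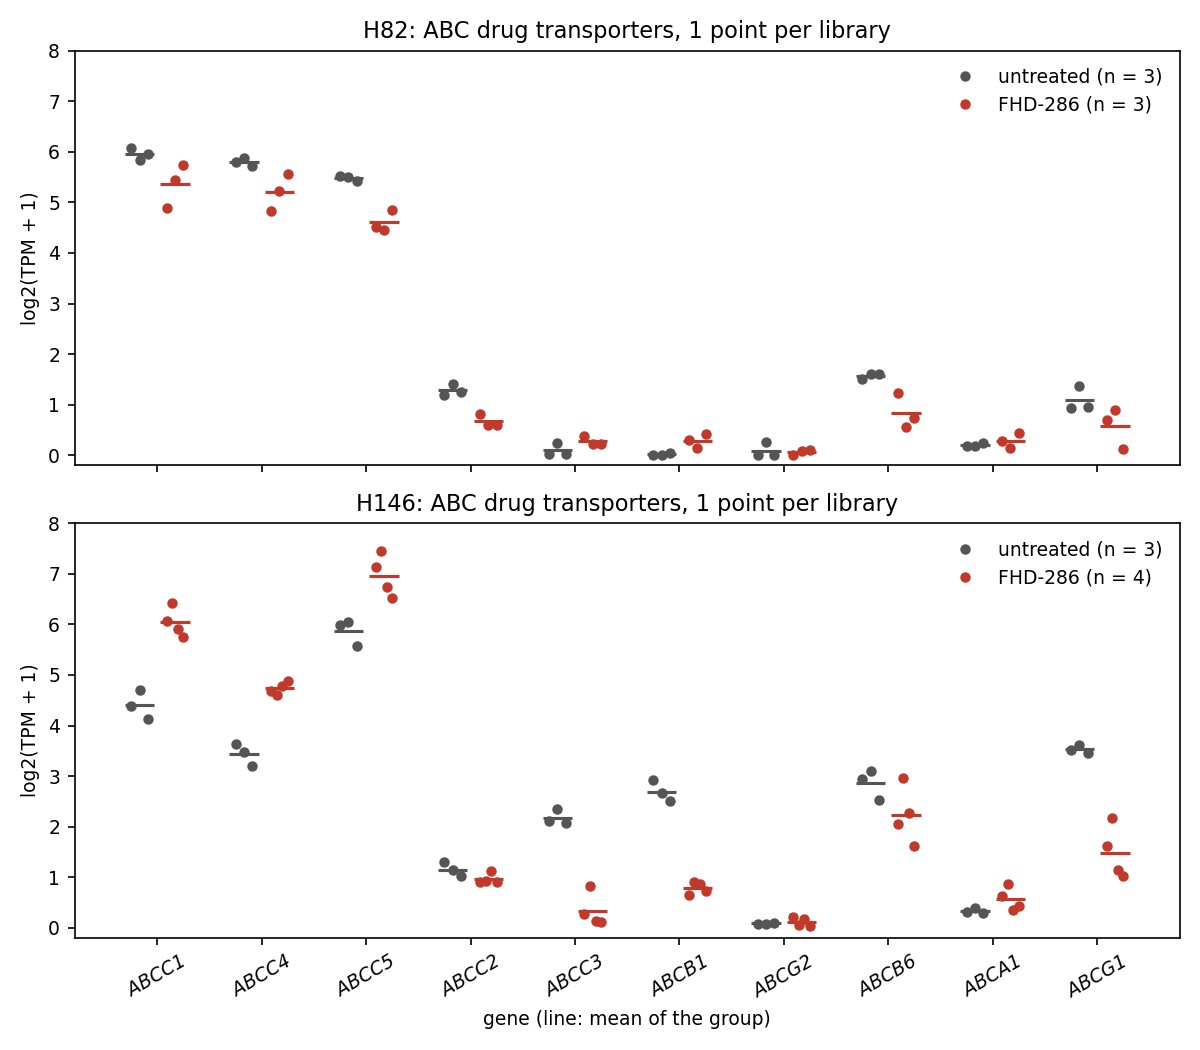
Level of each ABC drug transporter as log2(TPM + 1) in every library of H82 (upper panel) and H146 (lower panel), with untreated libraries in grey, FHD-286-treated libraries in red and a line at the group mean. In H82 the 3 points of *ABCC1*, *ABCC4* and *ABCC5* without treatment lie above those with treatment, and in H146 the treated points of these genes lie above the untreated ones while those of *ABCC3*, *ABCB1* and *ABCG1* lie below.

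Each line was then tested for an effect of FHD-286 with limma on log2(TPM + 1), and a gene was tested when it reached 1 TPM or more in 3 or more libraries of that line. *P* values were two-sided and adjusted over all genes tested by the Benjamini-Hochberg method, with a threshold of 0.05. In H146, 8 members passed the filter, and 3 of them fell and 3 rose, where 15.5% of all genes tested fell and 32.5% rose (47.9% in either direction). In H82, 5 members passed the filter, and 4 fell and 0 rose, where 45.5% of all genes tested fell and 13.1% rose (58.6% in either direction). By the libraries alone, the 5 members tested in H82 were all lower without overlap, as were 51.4% of genes tested, with 16.4% higher. In H146, 3 were lower and 3 higher without overlap, beside 17.3% and 35.7% of genes tested. Over all genes tested the median log2 fold change was 0.25 in H146 and -0.56 in H82, and the log2 fold change of each tested member is also given relative to the median of its line. *ABCC2* in H82 and *ABCB1* and *ABCC3* in H146 passed the filter through their untreated libraries alone, so a lower treated level was built into their selection. In bulk RNA, fewer cells expressing a gene and less RNA per cell cannot be told apart.

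On the log2(TPM + 1) scale the largest falls in H146 were in *ABCG1*, *ABCB1* and *ABCC3*. *ABCB1* (ENSG00000085563.15, chromosome 7, 87503017 to 87713323 on the minus strand in hg38) encodes P-glycoprotein, which exports large hydrophobic drugs including etoposide, taxanes and anthracyclines. It was at 6.57, 5.34 and 4.65 TPM in the untreated H146 libraries and at 0.568, 0.862, 0.813 and 0.655 TPM in the treated ones. All 4 treated libraries lay below 1 TPM, and the groups did not overlap. The mean was 7.61-fold lower with treatment, and the log2 fold change was -1.91 (SE, its standard error, 0.18, limma adjusted *p* = 0.000116), or -2.16 relative to the median of all genes.

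*RUNDC3B*, a protein-coding gene on the opposite strand, overlaps *ABCB1*, and reads of the pair cannot be told apart where strand was not used in counting, which the sources used here do not state. *RUNDC3B* was at 10.9, 11.1 and 9.49 TPM in untreated and 9.33, 6.92, 4.24 and 4.91 TPM in treated H146. Its log2 fold change was -0.69 (SE 0.24, limma adjusted *p* = 0.0424). In H82, *ABCB1* was listed at 0, 0 and 0.0353 TPM without treatment and at 0.226, 0.0956 and 0.33 TPM with treatment, below the filter. Treated H82 libraries were all above the untreated ones (exact permutation test on mean log2(TPM + 1), two-sided *p* = 0.1, the smallest that 3 against 3 libraries allow). These levels were under 1 TPM. Each treated H82 library also held RNA of H146 genes, whose part in these values was not tested.

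*ABCC3* (ENSG00000108846.16, chromosome 17, 50634777 to 50692253 on the plus strand) encodes an exporter of bile salts and glucuronide conjugates at the basolateral membrane of epithelial cells. Its level in H146 was 3.29, 4.06 and 3.21 TPM without and 0.206, 0.775, 0.0893 and 0.0833 TPM with FHD-286. The groups were far apart, with treated replicate 2 the highest of its group. The mean was 12.2-fold lower, and the log2 fold change was -1.84 (SE 0.22, limma adjusted *p* = 0.000416), or -2.09 relative to the median. By ratio of means, and with 0.1 in place of 1 added to TPM (-3.54), it was the most lowered member in H146. In H82 *ABCC3* was below the filter, at 0.0199, 0.189 and 0.0213 TPM in untreated and 0.298, 0.173 and 0.172 TPM in treated libraries, which overlapped (exact permutation test, two-sided *p* = 0.3).

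*ABCG1* (ENSG00000160179.19, chromosome 21, 42199689 to 42297244 on the plus strand) moves cholesterol to high-density lipoprotein and is induced by the oxysterol-sensing liver X receptors (LXR). It went from 10.4, 11.2 and 10.0 TPM in untreated H146 to 2.06, 3.51, 1.19 and 1.03 TPM with treatment, with no overlap. The fall was 5.41-fold in the mean, with a log2 fold change of -2.04 (SE 0.28, limma adjusted *p* = 0.000721), or -2.29 relative to the median. In H82 it was lower, below the filter, at 0.909, 1.57 and 0.936 TPM without and 0.625, 0.862 and 0.0833 TPM with treatment, again without overlap (exact permutation test, two-sided *p* = 0.1). *ABCA1* (ENSG00000165029.17, chromosome 9, 104781006 to 104928155 on the minus strand), which loads cholesterol onto apolipoprotein A-I and is likewise an LXR target, was not at 1 TPM in any library. Its levels were 0.135 to 0.18 TPM in untreated and 0.0978 to 0.348 TPM in treated H82 (exact permutation test, two-sided *p* = 0.5). In H146 they were 0.215 to 0.304 TPM and 0.284 to 0.816 TPM (exact permutation test, two-sided *p* = 0.114, where groups without overlap give 0.0571, the smallest possible).

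The 3 abundant ABCC genes rose in H146. *ABCC1* (ENSG00000103222.20, chromosome 16, 15949138 to 16143257 on the plus strand) encodes a pump for glutathione conjugates, anthracyclines and etoposide. It was at 20.004, 25.2 and 16.5 TPM in untreated H146 and at 66.4, 84.7, 59.3 and 53.1 TPM in treated H146. The lowest treated library was above the highest untreated one. The mean was 3.20-fold higher, with a log2 fold change of 1.63 (SE 0.19, limma adjusted *p* = 0.000379), or 1.38 above the median of all genes.

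*ABCC4* (ENSG00000125257.16, chromosome 13, 95019835 to 95301475 on the minus strand), an exporter of cyclic nucleotides, prostaglandins and nucleotide analogues, was at 11.3, 10.2 and 8.22 TPM without and 24.7, 23.2, 26.5 and 28.4 TPM with treatment. The treated libraries were tight and stood clear of the untreated ones, at a 2.60-fold higher mean and a log2 fold change of 1.30 (SE 0.15, limma adjusted *p* = 0.000295), or 1.05 above the median. *ABCC5* (ENSG00000114770.17, chromosome 3, 183919934 to 184017939 on the minus strand) also exports cyclic nucleotides and nucleotide analogues. It was at 62.4, 64.8 and 46.4 TPM without and 140, 174, 106 and 91.1 TPM with treatment in H146, with no overlap. Its mean was 2.21-fold higher, and its log2 fold change was 1.10 (SE 0.23, limma adjusted *p* = 0.00524), or 0.85 above the median.

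The same 3 genes had lower means in treated H82. *ABCC5* was at 45.1, 44.1 and 42.1 TPM in untreated and at 21.8, 21.0 and 27.7 TPM in treated H82, with no overlap. Its mean was 1.86-fold lower, and on the log2(TPM + 1) scale it was the most lowered member in H82, at -0.88 (SE 0.15, limma adjusted *p* = 0.00257), or -0.32 relative to the median of all genes. *ABCC4* went from 54.7, 57.9 and 51.8 TPM to 27.5, 36.5 and 46.1 TPM. The treated libraries of *ABCC4* were spread, at a 1.49-fold lower mean, and its log2 fold change of -0.59 (SE 0.20, limma adjusted *p* = 0.0376) was -0.04 relative to the median of all genes. *ABCC1* was at 66.6, 55.97 and 61.0 TPM in untreated and 28.6, 42.7 and 52.7 TPM in treated H82. The groups of *ABCC1* did not overlap, at a 1.48-fold lower mean, but its log2 fold change of -0.59 (95% interval -1.14 to -0.05, and -0.04 relative to the median) missed the threshold (limma adjusted *p* = 0.0601).

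*ABCB6* (ENSG00000115657.14, chromosome 2, 219209772 to 219218994 on the minus strand) transports porphyrins, the precursors of heme, and its locus lies inside a read-through gene on the same strand, with which it may share reads. It fell in H82, from 1.83, 2.03 and 2.03 TPM to 1.35, 0.477 and 0.658 TPM, with a log2 fold change of -0.73 (SE 0.23, limma adjusted *p* = 0.0295), or -0.17 relative to the median. The mean was 2.38-fold lower, a larger ratio than that of *ABCC5*, and with 0.1 added to TPM the value was -1.27, against -0.91 for *ABCC5*. Its H146 levels were 6.64, 7.55 and 4.79 TPM without and 3.17, 6.80, 3.85 and 2.07 TPM with treatment. Treated replicate 2 of H146 lay among the untreated libraries, and the log2 fold change of -0.62 (95% interval -1.33 to 0.08, and -0.87 relative to the median) missed the threshold (limma adjusted *p* = 0.126). Without that library the fold change itself was -0.87 (limma adjusted *p* = 0.0118).

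*ABCC2* (ENSG00000023839.12, chromosome 10, 99782640 to 99852594 on the plus strand), which secretes bilirubin and drug conjugates into bile, was at 1.29, 1.66 and 1.38 TPM in untreated and 0.748, 0.512 and 0.512 TPM in treated H82. Its log2 fold change in H82 was -0.62 (SE 0.18, limma adjusted *p* = 0.0226), or -0.06 relative to the median, with a 2.45-fold lower mean, in the same treated libraries in which all 5 hepatocyte markers were present. Its H146 levels were 1.46, 1.20 and 1.02 TPM without and 0.881, 0.889, 1.19 and 0.867 TPM with treatment, which overlapped (log2 fold change -0.19, 95% interval -0.57 to 0.20, -0.43 relative to the median, limma adjusted *p* = 0.396). *ABCG2* (ENSG00000118777.12, chromosome 4, 88090150 to 88231628 on the minus strand) encodes the breast cancer resistance protein, an exporter of topotecan. It was at most 0.206 TPM in any of the 13 libraries, and was listed at 0 in 2 untreated and 1 treated library of H82. Its groups overlapped in H82 (exact permutation test, two-sided *p* = 1) and in H146 (exact permutation test, two-sided *p* = 0.571), and a difference was not detectable at these levels.

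**Figure D2:**
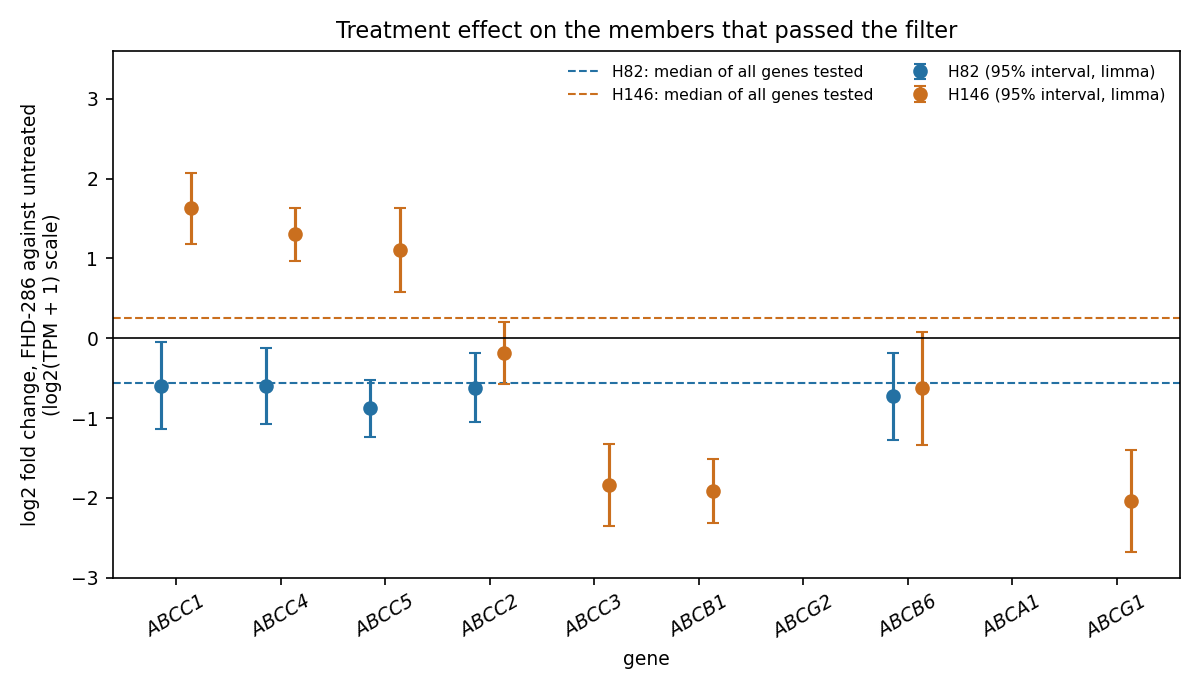
Log2 fold change of FHD-286-treated against untreated libraries on the log2(TPM + 1) scale for the members tested, with 95% intervals from limma (H82 in blue, H146 in orange) and dashed lines at the median of all genes tested in each line, -0.56 in H82 and 0.25 in H146. The 5 intervals of H82 are all below 0 and all contain the H82 median, while the H146 values run from -2.04 for *ABCG1* to 1.63 for *ABCC1*.

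The summed TPM of the 10 members was lower with treatment in H82 and higher in H146. In H82 it was 165 ± 5.67 TPM without and 104 ± 23.7 TPM with treatment (SD over 3 and 3 libraries), and in H146 it was 116 ± 18.3 TPM and 228 ± 51.6 TPM (SD over 3 and 4 libraries). The highest treated H82 library was at 129 TPM and the lowest untreated one at 159 TPM. In H146 the highest untreated library was at 130 TPM and the lowest treated one at 178 TPM. *ABCC1*, *ABCC4* and *ABCC5* made up 97.3% ± 1.36 of the sum in treated H82 and 96.4% ± 0.786 in treated H146 (SD over 3 and 4 libraries). In treated H146 the order was *ABCC5* at 128 ± 36.9 TPM, *ABCC1* at 65.8 ± 13.7 TPM and *ABCC4* at 25.7 ± 2.25 TPM (SD, n = 4), each pair of neighbours without overlap. The sum fell to 0.633 of its untreated mean in H82, a log2 ratio of -0.66 beside the median of -0.56 for all genes. After median-of-ratios scaling within a line, chosen after the data were seen, the H82 sum was 139 ± 4.43 without and 123 ± 23.2 with treatment (SD over 3 and 3 libraries), which overlapped, with a ratio of 0.885. The H146 sum was 1.97 times as high with treatment, and 1.60 times after that scaling, without overlap. Without treated H82 replicate 2 the H82 ratio was 0.638.

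**Figure D3:**
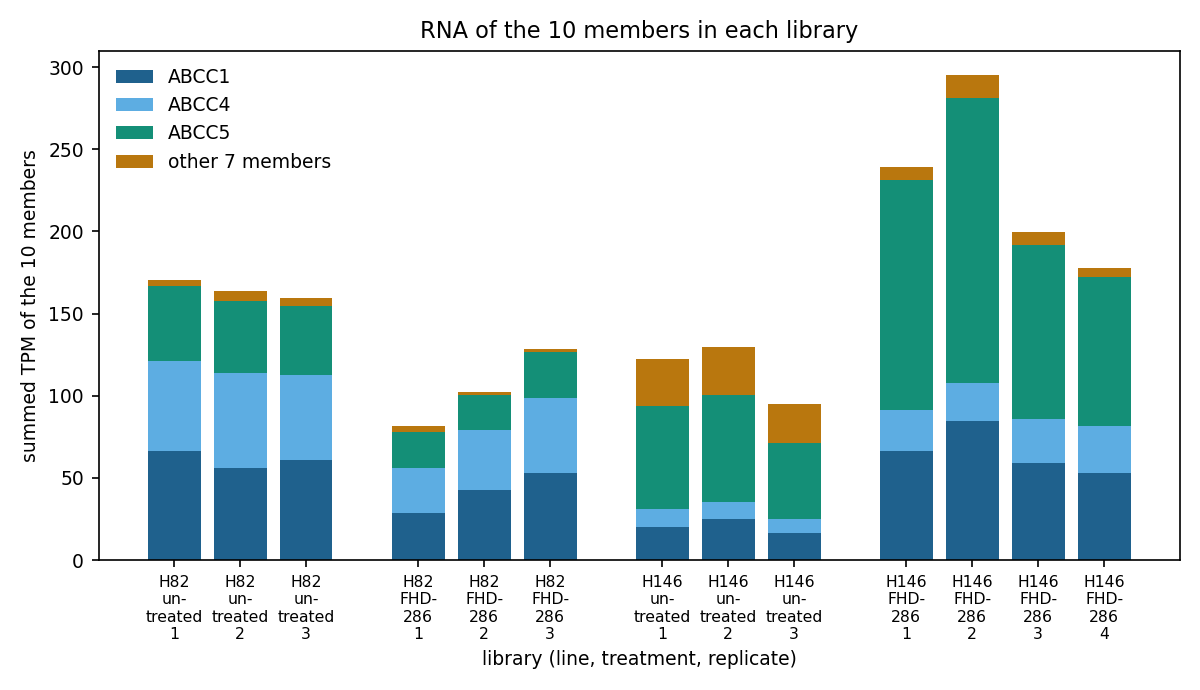
Summed TPM of the 10 members in each library, stacked by *ABCC1*, *ABCC4*, *ABCC5* and the other 7 members. The treated H82 libraries reach 81.3 to 129 TPM against 159 to 171 TPM without treatment, and the treated H146 libraries 178 to 295 TPM against 95.1 to 130 TPM.

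Whether the 2 lines differed in their response was tested with an interaction term over all 13 libraries, in which TPM was scaled within each library only. Among all 23676 genes tested, 46.5% had a higher and 13.7% a lower effect in H146 than in H82, 60.2% in all. Of the 8 members tested, *ABCC1* (2.22, SE 0.31, limma adjusted *p* = 8.29e-05), *ABCC4* (1.89, SE 0.24, limma adjusted *p* = 4.05e-05) and *ABCC5* (1.98, SE 0.30, limma adjusted *p* = 0.000135) had a higher effect in H146. The median difference of all genes was 0.73 on this log2 scale, so these 3 values lie 1.49, 1.16 and 1.25 above it. *ABCB1* (-2.17, limma adjusted *p* = 5.31e-06), *ABCC3* (-2.01, limma adjusted *p* = 4.13e-05) and *ABCG1* (-1.53, limma adjusted *p* = 0.00601) had a lower effect in H146. *ABCB1* and *ABCC3* entered this test through their untreated H146 libraries alone, and were at most 0.33 and 0.298 TPM in any H82 library. A fall in H82 could hardly show at such levels, so a lower effect in H146 was built into their selection. *ABCG1* was at most 1.57 TPM in H82 and below the filter there. With 0.1 in place of 1 added to TPM, the value of *ABCG1* was -1.28 and no longer past the threshold (limma adjusted *p* = 0.195). *ABCB6* (0.10, limma adjusted *p* = 0.844, 95% interval -0.80 to 1.004) and *ABCC2* (0.44, limma adjusted *p* = 0.0796, 95% interval -0.00273 to 0.87) did not pass the threshold.

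Scaling between libraries changed calls in H82. When libraries were scaled by the median of ratios, which sets them level by their typical gene, the median of all genes was -0.14 in H82, and *ABCC5* was the 1 member past the threshold (log2 fold change -0.40, limma adjusted *p* = 0.0403). *ABCC1* and *ABCC4* were both at -0.11 under that scaling. With quantile normalization *ABCC1* (-0.46, limma adjusted *p* = 0.0395), *ABCC4* (-0.43, limma adjusted *p* = 0.0315) and *ABCC5* (-0.60, limma adjusted *p* = 0.00774) were lower, and *ABCB6* (0.23) and *ABCC2* (0.28) turned to the other direction without passing the threshold. Without treated replicate 2, *ABCC5* was likewise the 1 member called in H82 (-0.81, limma adjusted *p* = 0.0114), with *ABCB6* at -0.59, *ABCC1* at -0.64, *ABCC2* at -0.59 and *ABCC4* at -0.61. With each H82 library left out in turn, and the same genes tested, its log2 fold change ran from -0.999 to -0.81, and each time it was past the threshold (limma adjusted *p* at most 0.016). *ABCC1* passed the threshold without treated replicate 1 (-0.36, limma adjusted *p* = 0.0411) or treated replicate 3 (-0.79, limma adjusted *p* = 0.0245). *ABCB6* no longer passed without any one library other than treated replicate 1 (limma adjusted *p* 0.0612 to 0.0945). *ABCC4* no longer passed without any one untreated library or treated replicate 2 (limma adjusted *p* 0.0812 to 0.111), and *ABCC2* without treated replicate 2 or 3 (limma adjusted *p* = 0.0719 and 0.0789). In H146 the 3 falls and 3 rises kept their direction and stayed past the threshold under both scalings, with *ABCC5* the nearest to it (0.78 and limma adjusted *p* = 0.0299 with the median of ratios). *ABCB6* passed the threshold in H146 under both scalings, at -0.89 each (limma adjusted *p* = 0.0462 and 0.0413).

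**Figure D4:**
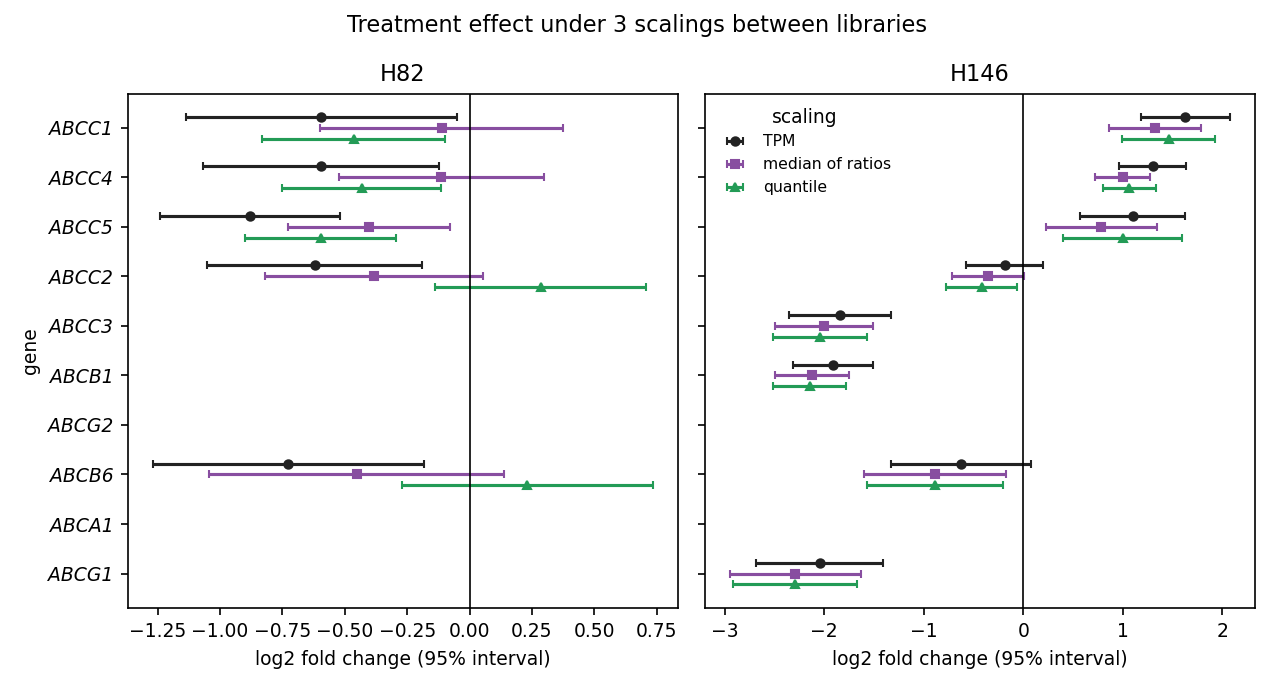
Log2 fold change with 95% intervals for each tested member in H82 (left) and H146 (right), from TPM as deposited (black), after median-of-ratios scaling (purple) and after quantile normalization (green). In H82 the *ABCC1* and *ABCC4* points move from -0.59 to -0.11 under the median of ratios, while in H146 the rises of *ABCC1*, *ABCC4* and *ABCC5* and the falls of *ABCC3*, *ABCB1* and *ABCG1* stay on their side of 0. The horizontal axes differ between panels.

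Of the 38 other ABC family genes, 21 were tested in H82, where 10 fell and 0 rose, with a median log2 fold change of -0.64 beside -0.56 for all genes. In H146, 23 were tested, and 2 fell and 8 rose, with a median of 0.35 beside 0.25. Under the median of ratios the counts were 6 lower and 4 higher in H82, and 5 and 7 in H146, where over all genes tested 32.9% fell and 24.2% rose in H82, and 25.1% fell and 21.3% rose in H146. Without treated H82 replicate 2, 9 fell and 0 rose in H82, beside 41.4% and 10.5% of all genes tested. *ABCC10* (-0.90 in H82, 0.95 in H146), *ABCC8* (-0.997 and 0.68) and *ABCC6* (-1.51 and 0.74) were lower in H82 and higher in H146, like *ABCC4* and *ABCC5*, although under the median of ratios *ABCC10* in H82 was at -0.47 and missed the threshold (limma adjusted *p* = 0.0822), and with quantile normalization all 3 did so in H82 (limma adjusted *p* 0.0831, 0.991 and 0.722 for *ABCC6*, *ABCC8* and *ABCC10*). *ABCC8* encodes a regulatory subunit of potassium channels, and *ABCC6* has near-identical pseudogenes that can share its reads. The largest fall in H82 was in *ABCA4*, the retinal flippase of vitamin A derivatives, from 19.4 ± 0.751 to 1.72 ± 0.803 TPM (SD over 3 and 3 libraries, log2 fold change -2.95, limma adjusted *p* = 0.00021). In H146 the lipid transporter *ABCA12* fell (-0.96), but it passed the filter through its untreated libraries alone, so a lower treated level was built into its selection.

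**Figure D5:**
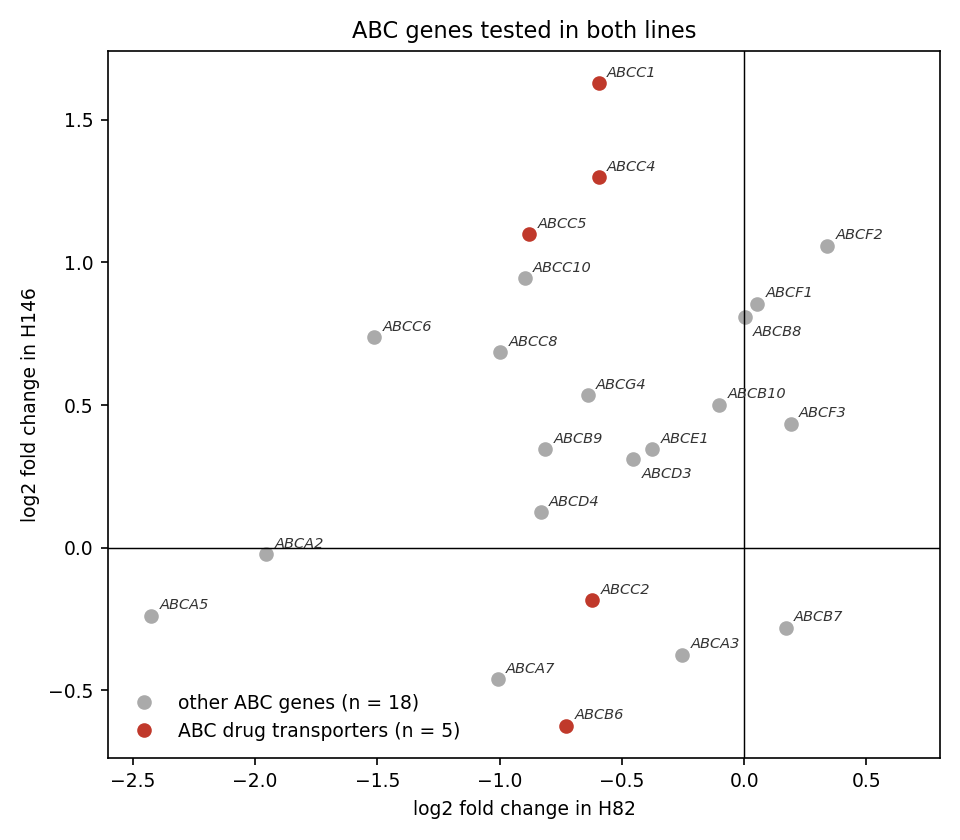
Log2 fold change in H82 (horizontal) against that in H146 (vertical) for the 5 members in red and 18 other ABC genes in grey that were tested in both lines. Of the members 3 lie below 0 in H82 and above 0 in H146 and 2 below 0 in both, and of the other genes 9 and 4 do so.

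Drug entry, conjugation and the pathways around the lipid and heme transporters were described by lists of genes, whose counts are to be read against the shares of all genes given above for the same scaling and libraries. Of 24 genes for drug uptake and copper transport, 11 were tested in H82 (3 fell, 1 rose) and 13 in H146 (5 fell, 5 rose). Under the median of ratios 2 fell and 2 rose in H82, and 5 and 2 in H146, and without treated H82 replicate 2 it was 2 and 1 in H82. The folate and methotrexate carrier *SLC19A1* rose in H146 (log2 fold change 1.19, limma adjusted *p* = 0.0473, but 0.93 and 0.0905 under the median of ratios), and the carnitine and anthracycline carrier *SLC22A16* fell there (-1.16). *SLCO1A2*, an organic anion uptake carrier, fell in both lines (-1.36 in H82 and -0.53 in H146). *SLC22A16* in H146 and *SLCO1A2* in H82 passed the filter through their untreated libraries alone, so a lower treated level was built into their selection.

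Glutathione genes make the conjugates that ABCC pumps export. Of 18, 17 were tested in each line, with 0 falling and 9 rising in H82 (median 0.63 beside -0.56 for all genes) and 6 falling and 5 rising in H146 (median -0.20 beside 0.25). Under the median of ratios 0 fell and 13 rose in H82, and 9 and 3 in H146, and without treated H82 replicate 2 it was 0 and 7 in H82. *GSTP1*, a glutathione transferase, rose from 437 ± 49.9 to 837 ± 54.7 TPM in H82 (SD over 3 and 3 libraries) and from 2.85 ± 0.377 to 7.19 ± 1.73 TPM in H146 (SD over 3 and 4 libraries). *GSR*, which regenerates reduced glutathione, rose in both lines (0.86 and 0.61), as did *GSTA4* (1.23 and 0.92), although after median-of-ratios scaling *GSR* in H146 was at 0.29 and not past the threshold (limma adjusted *p* = 0.0637). *MGST3* was the largest rise in H82 (1.30). In H146 *GCLM*, the modifier subunit of the first enzyme of glutathione synthesis, rose (1.29) and *MGST2* fell (-1.23). These rises stand beside the hepatocyte markers in treated H82, whose part in them was not tested.

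In the sterol list, 13 genes were tested in H82 (5 fell, 4 rose) and 12 in H146 (3 fell, 5 rose). Under the median of ratios 1 fell and 5 rose in H82, and 4 and 3 in H146, and without treated H82 replicate 2 it was 4 and 4 in H82. *NR1H2*, which encodes the widely expressed liver X receptor beta, rose in H146 from 29.999 ± 5.82 to 112 ± 31.2 TPM (SD over 3 and 4 libraries, log2 fold change 1.82, limma adjusted *p* = 0.000744), where *ABCG1* fell. *SREBF1*, an LXR target that drives fatty acid synthesis, fell in H146 (-1.59) and in H82 (-0.73), the latter at -0.26 after median-of-ratios scaling and then not past the threshold (limma adjusted *p* = 0.31). *APOC1* had the largest rise in H82 (3.07), beside the hepatocyte markers. *RXRB* and *PLTP* rose in both lines, by 0.53 and 0.71 in H82 and by 0.72 and 0.51 in H146 on the log2 scale, although after median-of-ratios scaling *PLTP* in H146 was at 0.19 and not past the threshold (limma adjusted *p* = 0.187).

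Of 8 heme synthesis enzymes, which make the porphyrins that ABCB6 carries, 1 fell and 5 rose in H82 and 1 fell and 4 rose in H146. The median of ratios gave 0 and 7 in H82, and 1 and 1 in H146, and without treated H82 replicate 2 it was 0 and 4 in H82. *ALAS1*, the rate-limiting enzyme, rose in H82 (0.54, limma adjusted *p* = 0.033) and fell in H146 from 164 ± 11.6 to 68.0 ± 11.7 TPM (SD over 3 and 4 libraries, log2 fold change -1.27). Without treated H82 replicate 2 the H82 value of *ALAS1* was 0.44 and not past the threshold (limma adjusted *p* = 0.107). *UROS* (1.20 and 1.40) and *FECH* (0.75 and 0.46) rose in both lines, but under the median of ratios *FECH* was at 0.14 in H146 and not past the threshold (limma adjusted *p* = 0.357), while *UROS* was at 1.11 (limma adjusted *p* = 0.0129). *ALAD* fell in H82 (-0.37), but was at 0.10 under the median of ratios, and at -0.35 and not past the threshold without treated replicate 2 (limma adjusted *p* = 0.122).

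Of 16 regulators of transporter genes, 10 were tested in H82 (3 fell, 1 rose) and 11 in H146 (3 fell, 3 rose). The median of ratios gave 2 and 5 in H82, and 4 and 3 in H146, and without treated H82 replicate 2 it was 3 and 0 in H82. *KEAP1*, the inhibitor of the antioxidant factor NRF2, rose in both lines (0.64 and 0.88), but in H82 it was at 0.52 and not past the threshold without treated replicate 2 (limma adjusted *p* = 0.0871). *HIF1A*, the hypoxia factor, fell in both (-0.59 and -0.38), although its H82 value was -0.11 under the median of ratios. *PPARG* fell in H146 from 4.25 ± 0.618 to 0.424 ± 0.139 TPM (SD over 3 and 4 libraries, log2 fold change -1.88, limma adjusted *p* = 0.000124), and *PPARA* fell in H82 (-2.02). In H146 *PPARG* passed the filter through its untreated libraries alone, so a lower treated level was built into its selection.

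The start regions of the genes that moved apart in H146 are shown to place them by sequence. RefSeq promoters, from 250 bases before to 50 bases after a start in GRCh38.p14, matched 7 members with 12 promoters. *ABCC1*, *ABCC3* and *ABCG1* had no entry. The windows below are 30 bases, 5′ to 3′ on the gene's strand, with the match in capitals. For *ABCB1*, at chr7:87600963-87600992, the match is CAGATG on the opposite strand, the E-box that NEUROD1 binds, and at chr7:87601100-87601129 it is TGANTCA, the AP-1 element, which overlaps a CAGCTG match. For *ABCC4*, at chr13:95301581-95301610, it is TGACNNNGC on the opposite strand, the core of the antioxidant response element. For *ABCC5*, at chr3:184017895-184017924, it is TATAAA, and it begins 28 bases before the start.
ABCB1 E-box: gccgggagcagtCATCTGtggtgaggctga
ABCB1 AP-1: aatgtccccaaTGATTCAgctgatgcgcgt
ABCC4 antioxidant core: gtctcctcccGCCGCGTCAcccgtcggtcc
ABCC5 TATA: ggccgatgccgcTATAAAggcttgttttgc

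Searched on both strands, CAGATG was in 14.7% of all 35116 promoters and in 1 of the 12 promoters of members, and TGANTCA was in 7.71% and also in 1 of 12. TGACNNNGC was in 13.3% of all promoters and in 3 of 12 (those of *ABCB6*, *ABCC4* and *ABCG2*), and TATAAA in 11.5% and in 3 of 12 (those of *ABCA1*, *ABCC2* and *ABCC5*). The GC box GGGCGG was in 45.0% of all promoters and in 5 of 12. The *ABCC4* promoter was 79.7% G and C, beside a median of 58.7% over all promoters. A match describes the letters only.

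The genes with the pattern most like that of *ABCC5*, the member with the largest called change in H82 on the log2(TPM + 1) scale, were found by Pearson correlation of log2(TPM + 1) over the 13 libraries among 15679 genes tested in both lines. They were *ZNF236* (r = 0.989), *CTD-2574D22.4* (0.980) and *P2RX2* (0.980), the last an ATP-gated ion channel that went from 5.86 ± 0.731 to 0.197 ± 0.0698 TPM in H82 (SD over 3 and 3 libraries) and from 11.7 ± 1.56 to 213 ± 110 TPM in H146 (SD over 3 and 4 libraries). For *ABCG1*, the member with the largest called change in H146 by absolute value on that scale, they were *PDZRN3* (r = 0.979), *ANKRA2* (0.978) and *PBX4* (0.973). In H146, *PDZRN3* had 76.1 ± 3.18 TPM in untreated libraries against 14.8 ± 6.32 TPM in treated ones (SD over 3 and 4 libraries). The libraries form 4 groups that share line and treatment, so these correlations mostly follow the group means and are given as a description.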

How the data were processed

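RNA of 13 libraries of H82 and H146 was analysed. The authors trimmed reads with Trim Galore 0.4.4, mapped them to hg38 with STAR, counted genes of GENCODE release 28, compared groups with DESeq2 and deposited 1 table of TPM values per line. The deposited TPM sum to 1000000 in each library. How gene length was taken, and library strandedness, are not given in the sources used here. Depth cannot be read from TPM, so no counting interval is given.

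Each line was fitted with limma 3.58.1 in R 4.3.3 (lmFit, eBayes with trend) on log2(TPM + 1), keeping genes that reached 1 TPM in 3 or more libraries, and two-sided *p* values were adjusted over all tested genes (Benjamini-Hochberg). The interaction fit used all 13 libraries. For members under the filter, an exact permutation test was run in scipy 1.17.1. Fold changes on this scale understate those of low genes, so ratios of mean TPM, chosen after the data were seen, are also given, as were the scaled sum of the members and the gene lists without treated H82 replicate 2. The fits were also run on simulated data with few changed genes, chosen among genes of higher level. That run does not show how the tests perform for members at low levels or when many genes change. Positions are from GENCODE release 44 by symbol, and promoters from RefSeq. The 10 members and the gene lists were chosen with earlier results of these data known. Named genes are all members, the largest called rise and fall of each list in each line, genes called in the same direction in both lines (at most 4 per list), and the 3 genes most correlated with the member of the largest called change in each line. Some genes that this rule names are not reported here, though the list counts include them. *ABCC6*, *ABCC8* and *ABCC10* were named after their values were seen. The 38 other ABC genes, 24 uptake, 18 glutathione, 13 sterol, 8 heme and 16 regulator genes were described by counts. Alternatives were other pseudocounts, filters, scalings, the replicate block, and each library left out.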

Additional observations from a re-analysis of the deposited data

Results flagged for a closer look

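In treated H146, *ABCC2* was at 1.19 TPM in replicate 3, away from the other 3 treated libraries at 0.867 to 0.889 TPM by more than Dixon's 95% limit for 4 samples. The 10 members were each examined in this way in the 4 treated H146 libraries, and 1 was past the limit, and chance gives about 1 in 20.

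For 6 of the 8 members tested the effect of FHD-286 differed between the lines by limma's interaction test, as it did for 60.2% of all 23676 genes tested. On the log2 scale, the effect in H146 minus that in H82 was 2.22 for *ABCC1*, 1.98 for *ABCC5* and 1.89 for *ABCC4*. It was -2.17 for *ABCB1*, -2.01 for *ABCC3* and -1.53 for *ABCG1*. *ABCB1*, *ABCC3* and *ABCG1* were below the filter in H82. In H146 *ABCB1* and *ABCC3* passed it through their untreated libraries alone, so a lower effect in H146 was built into their selection. The median difference over all genes tested was 0.73. With 0.1 in place of 1 added to TPM, the value of *ABCG1* was -1.28 and did not pass the threshold (limma adjusted *p* = 0.195).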

How the results depend on the processing

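In H82, 4 members were lower as reported, against 1 with no filter, 2 among genes with mean TPM above 2, 1 under the median of ratios and 1 with the replicate number as a block. With 1 H82 library left out the count was 1 to 5. It was 1 without treated replicate 2, and with the genes of the full fit kept (an alternative chosen after seeing the data) it was 2 without untreated replicate 1, 2 or 3. *ABCC5* was past the threshold in each setting. With quantile normalization *ABCB6* (0.23) and *ABCC2* (0.28) in H82 reversed, as did their difference between the lines (-1.09 and -0.70). The difference of *ABCB6*, not past the threshold as reported (0.10), was also below 0 under the median of ratios (-0.41) and without treated H82 replicate 2, untreated H146 replicate 3 or treated H146 replicate 2, and ran from -0.14 to 0.31 with 1 library left out (-0.0371, -0.0587 and -0.14 without those 3 when the genes of the full fit were kept). With quantile normalization the count of members with a lower effect in H146 became 5 in place of 3. In H146, 3 members rose in each setting, and the falls of *ABCB1*, *ABCC3* and *ABCG1* held in each setting that tested them. The count of falls was 1 to 4 and the count of lower effects 1 to 3 with 1 library left out, since *ABCB1* and *ABCC3* no longer passed the filter without untreated H146 replicate 1, 2 or 3, and 3 to 4 and 3 with the genes of the full fit kept. The replicate block, fitted without treated H146 replicate 4, which has no same-numbered untreated library, left the H146 counts at 3 and 3. Same-numbered libraries did not deviate together (correlations -0.0378 to 0.027 in H82 and -0.111 to 0.0108 in H146), so the numbers name libraries and do not pair them. Low levels limit *ABCA1* and *ABCG2* in both lines and *ABCB1*, *ABCC3* and *ABCG1* in H82.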
